A study of Mus musculus with 249 samples.

Results

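The proteinase K titration is 1 experiment of a multiplex genome architecture mapping (GAM) collection. Its members were taken by the prefix F40 of their column names and by sample titles, which assign 5 libraries to an arm of 1 µl and 6 libraries to an arm of 2 µl of proteinase K, 11 of the 249 libraries of the series. All libraries came from 46C mouse embryonic stem cells, a line of 129/Ola background, grown with serum and LIF and moved to serum-free medium for their last day. Into each tube 4 profiles, thin slices of cells, were cut by laser from cryosections of 220 nm. Not every slice of a cell crosses its nucleus, so a tube may hold fewer nuclear slices than that, and a library mixes DNA from several cells, each sampled only in part. In the protocol text the lysis mix of 14.5 µl held 0.1 µl of proteinase K and 13 µl of water in the first arm, and 0.2 µl of proteinase K and 12.9 µl of water in the other. The titles and the protocol therefore differ in the stated volume, and the arms are called 1 µl and 2 µl here after the titles. Both arms shared 1.4 µl of lysis buffer, 4 h of lysis at 50 °C, the WGA4 whole genome amplification kit, 25 PCR cycles, beads that kept fragments longer than 500 bp, and a Nextera sequencing library. The names of the 1 µl libraries end in A2, C2, D2, F2 and G2, and those of the 2 µl libraries in A3, B3, D3, E3, F3 and G3. These endings read like wells of a plate, although no label states that they are, and if so, enzyme volume and plate column cannot be told apart. No label states that the tubes of an arm came from separate cultures, and every p-value below measures the spread between tubes.

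Proteinase K is a broad serine protease. It digests histones and other proteins that hold DNA in a fixed section, and the freed DNA is then fragmented and amplified. In GAM a genomic window is called positive when enough reads of a library fall into it. Loci that are close in the nucleus tend to be found in the same slice, so positive windows come in runs along the chromosome and whole chromosomes may be missing from a slice. A window that stays negative between a pair of positive neighbours is therefore a possible failure of lysis, amplification or sequencing, although a slice can also pass beside a loop of chromatin. The deposited table gives only positive or negative for each window of 40 kb. It has no read numbers, so the depth of each library is unknown here. It holds DNA and not RNA, so the cell type could not be checked by marker expression.

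The first question of the titration was how much of the genome each tube returned. Only libraries that passed the study's quality control could be compared. Tubes that failed it do not enter, and their number in each arm is unknown here. With 1 µl, 12.4%, 8.81%, 20.8%, 14.7% and 19.1% of the listed windows were positive in A2, C2, D2, F2 and G2. With 2 µl, 12.4%, 14.3%, 8.51%, 18.4%, 12.03% and 13.3% were positive in A3, B3, D3, E3, F3 and G3. The ranges of the arms overlapped over most of their length, and only E3 of the 2 µl libraries exceeded the 1 µl mean. The arms averaged 15.2% ± 4.90 (SD, n = 5) and 13.1% ± 3.23 (SD, n = 6), and the 95% interval of the difference, 2 µl minus 1 µl, ran from -7.47 to 3.74 percentage points (inverted exact permutation test). Pooled over tubes, 57.5% of the autosomal windows were positive in at least 1 of the 5 libraries with 1 µl and 59.0% in at least 1 of the 6 with 2 µl. Any 5 of the 6 libraries with 2 µl reached between 48.7% and 55.1%. All 11 libraries together reached 80.6%, or 49832 of 61816 autosomal windows.

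The next measures describe how contiguous the recovered DNA was. The share of positive windows with a positive neighbour was 75.3%, 71.4%, 62.3%, 84.7% and 84.5% in A2, C2, D2, F2 and G2. It was 82.7%, 78.4%, 77.5%, 86.2%, 80.3% and 80.9% in A3, B3, D3, E3, F3 and G3. All 6 libraries with 2 µl lay above the 1 µl mean, yet F2 and G2 lay above 5 of them. The means were 75.6% ± 9.43 (SD, n = 5) and 80.99% ± 3.16 (SD, n = 6), a difference of 5.36 ± 4.41 percentage points (SE) that did not pass the test (two-sided exact permutation test, p = 0.242, adjusted p = 0.588 over 13 measures; 95% interval -4.38 to 15.2).

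Negative windows between 2 positive ones, called drop-outs here, were the counterpart. They made up 34.2%, 38.4%, 40.1%, 22.6% and 24.5% of such flanked windows in A2, C2, D2, F2 and G2. In A3, B3, D3, E3, F3 and G3 they made up 27.5%, 31.1%, 31.4%, 21.9%, 29.3% and 27.5%. No 2 µl library reached the 1 µl mean of 31.95% ± 8.00 (SD, n = 5), but the lowest 1 µl values were below all 2 µl values except that of E3. The difference of -3.83 ± 3.85 percentage points (SE) did not pass (two-sided exact permutation test, p = 0.299, adjusted p = 0.588; 95% interval -12.4 to 5.79). It was -1.79 without D2 and -6.18 without F2.

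Runs of consecutive positive windows averaged 86.5, 78.4, 70.3, 113 and 111 kb in A2, C2, D2, F2 and G2, and 105, 93.7, 89.9, 123, 94.6 and 98.8 kb in A3, B3, D3, E3, F3 and G3. The arm means of 91.9 ± 19.4 kb (SD, n = 5) and 101 ± 12.02 kb (SD, n = 6) differed by less than the spread within the 1 µl arm (exact permutation p = 0.359, adjusted p = 0.588; 95% interval of the difference -15.98 to 32.1 kb). None of the 13 measures passed between the arms (0% called), and the unadjusted p-values of the exact test ran from 0.208 for joint detection at 1 Mb to 0.952 for the telomere shift. Each of the 13 ranges of the 1 µl libraries overlapped that of the 2 µl libraries. With 5 against 6 libraries the smallest p this test can give is 0.00433, and a single measure with fully separated tubes would not have passed after adjustment over 13 measures.

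**Figure D1:**
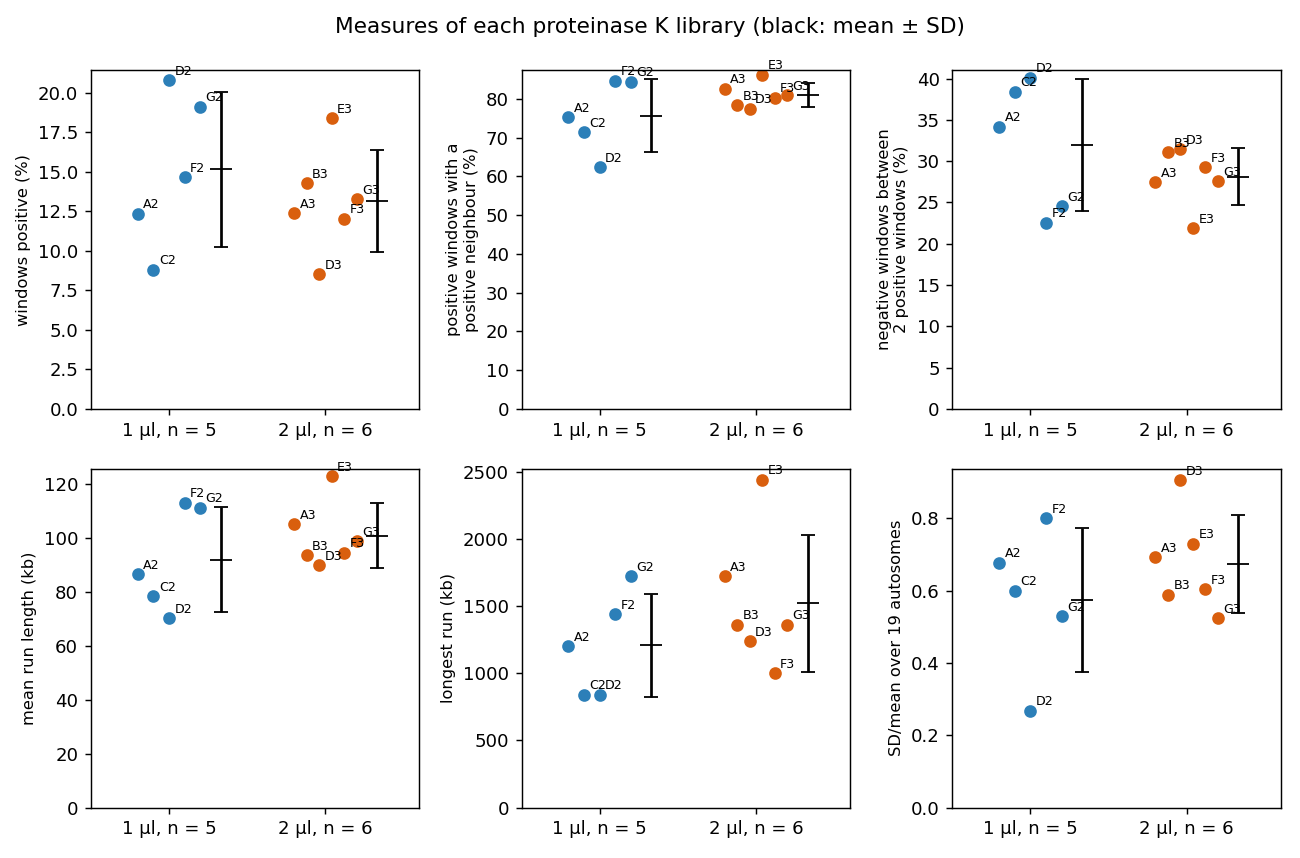
The 6 panels give 6 measures in each library of the titration, plotted by arm (x axis) with the ending of the library name beside each point; the y axes give percent, kb or a ratio, start at 0, and the black bars are mean ± SD. The arms overlap in every panel, and D2 has the highest coverage (20.8%) with the lowest neighbour share (62.3%) and the lowest unevenness (0.27).

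One tube stood apart in how its positive windows were spread. D2, of the 1 µl arm, had the highest coverage of the experiment and the lowest share of positive windows with a positive neighbour. Of its 14185 positive windows, 5344 had no positive neighbour, against 1532 of 9995 in F2, a library of the same arm. Its unevenness, the SD over the 19 autosomes of the percent positive divided by their mean, was 0.27, while the other 10 libraries had values between 0.52 and 0.91. In the whole series of 249 libraries D2 ranked 6 from the lowest for unevenness and 23 for neighbour share. F3 ranked 2 from the lowest for typicality, the detection elsewhere of a library's positive windows relative to all autosomal windows. Without D2 the 2 µl minus 1 µl difference in neighbour share was 2.03 percentage points (exact permutation p = 0.533, adjusted p = 0.856). The differences without D2 were also smaller for coverage (-0.59 percentage points), mean run length (3.52 kb) and joint detection at 1 Mb (1.58 percentage points). Other libraries moved them the other way, to -3.59 percentage points of coverage without C2 and to 14.2 kb of run length without F2. The cause of this pattern was not tested.

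The same tube showed in how detection fell off with distance. Joint detection is given here as the percent of positive autosomal windows whose partner at a set distance was also positive, minus the library's autosomal coverage. At 40 kb it was 21.3 percentage points in D2 and between 40.3 and 50.1 in the other 10 libraries. At 1 Mb it was 18.96, 15.99, 10.2, 21.4 and 22.1 percentage points in A2, C2, D2, F2 and G2, and 23.3, 21.4, 21.1, 26.02, 17.04 and 18.3 in A3, B3, D3, E3, F3 and G3. Values still lay above 0 at 10 Mb, at 6.46 ± 3.01 percentage points (SD, n = 5) with 1 µl and 6.96 ± 2.97 (SD, n = 6) with 2 µl, and the remaining libraries of the series averaged 7.25 ± 3.20. At 1 Mb the arms differed by 3.47 ± 2.55 percentage points (SE; exact permutation p = 0.208, adjusted p = 0.588; 95% interval -1.99 to 9.15).

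**Figure D2:**
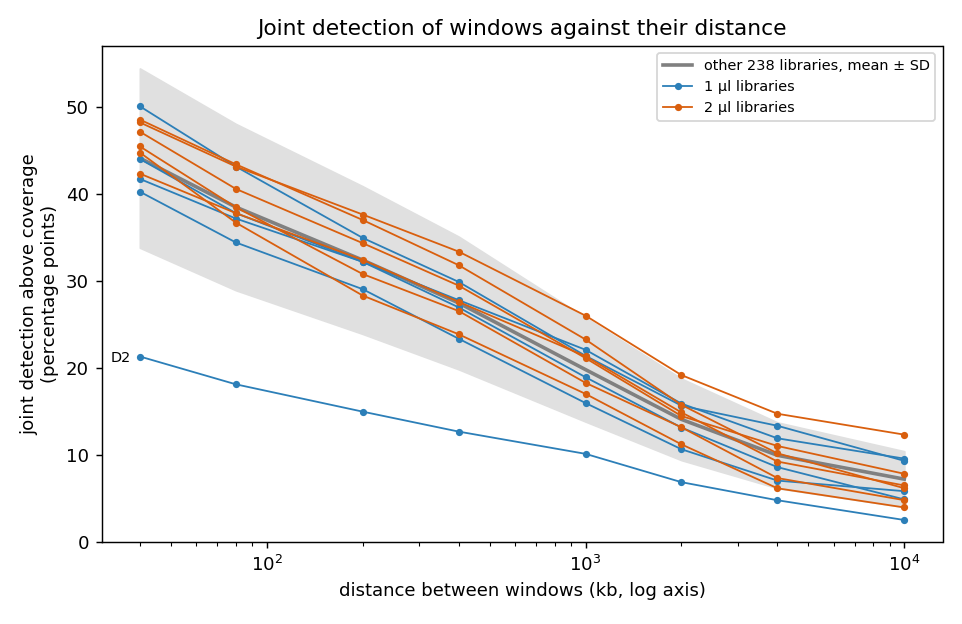
Joint detection above coverage (y axis, percentage points) against the distance between 2 windows (x axis, kb, log scale), with 1 line per library and the mean ± SD of the remaining libraries of the series in grey. All lines fall with distance, and D2 starts at 21.3 percentage points where the other 10 libraries start between 40.3 and 50.1.

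Windows missed inside runs were detected slightly less often elsewhere than those found. For each library, drop-outs on the autosomes were set beside the flanked windows that were positive, and each window was scored by the percent of the series' remaining libraries, all from other experiments, in which it was positive. Drop-outs scored lower in 11 of 11 libraries, with differences, drop-outs minus found windows, from -1.03 to -0.26 percentage points. Positive autosomal windows in general also scored higher than all autosomal windows, by 0.55 to 1.80 percentage points per library (mean 1.26, n = 11). A lower score for negative windows was thus likely in advance. The test below therefore does not show a property particular to drop-outs. In C2, with the widest gap, the 951 drop-outs among 2514 flanked windows averaged 20.5% and the found windows 21.5%. In D3, with the smallest, the averages were 20.3% and 20.6%. The mean gap was -0.58 ± 0.24 percentage points (SD, n = 11; exact sign-flip permutation test over libraries, p = 0.000977, adjusted p = 0.00293 over 3 properties; this p is the smallest that 11 libraries can give). GC content did not separate drop-outs from found windows by this test, with a mean difference of -0.11 ± 0.29 percentage points (SD, n = 11, lower in 6 of 11; exact permutation p = 0.215, adjusted p = 0.215). Single libraries ranged from -0.45 to 0.26 percentage points, so this mean runs over differences of both signs. The share of windows that overlap a protein-coding gene differed by -1.71 ± 3.40 percentage points (SD, n = 11, lower in 9 of 11; exact permutation p = 0.132, adjusted p = 0.198). At most 0.238% of a library's drop-outs were in windows that no library outside the experiment ever detected. These 3 comparisons were chosen after the values of the drop-outs had been seen.

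**Figure D3:**
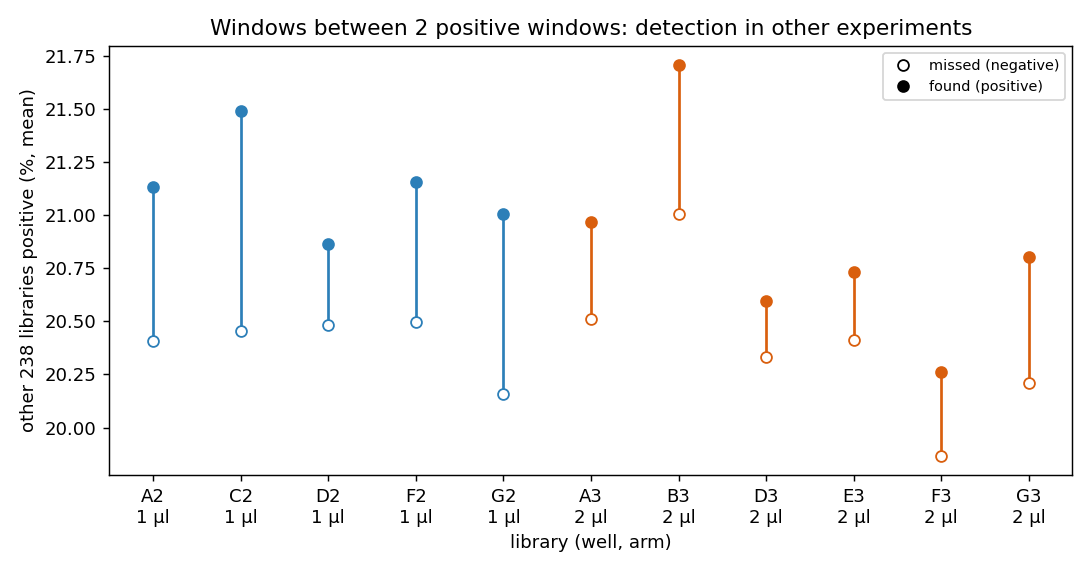
Mean percent of the remaining libraries positive (y axis, which does not start at 0) at windows flanked by 2 positive windows, for windows negative (open circles) and positive (filled circles) in each titration library (x axis). The open circle is the lower one in all 11 libraries, with differences from -1.03 to -0.26 percentage points.

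The next comparison asked which chromosomes each tube contained. A slice of a nucleus catches some chromosome territories and misses others, and the few slices in a tube leave gaps. Chromosome 17 was 0.25% positive in A2, chromosome 13 was 0.13% positive in C2, and in F2 chromosomes 8, 9 and 12 were 0.21%, 0.32% and 0.40% positive. With 2 µl, chromosome 3 was 0.23% positive in A3, chromosome 4 was 0.051% and chromosome 6 was 0.080% positive in D3, chromosome 2 was 0.15% positive in E3, and chromosome 10 was 0.52% positive in G3. By a limit of 1%, set after the values were seen, 17 of 209 pairs of a library and an autosome were nearly empty, and 9 of 11 libraries had at least 1. D2 and G2 had none. The experiment averaged 1.55 nearly empty autosomes per library and the remaining libraries 0.80. No test was made of this difference, and mean coverage of all listed windows was 14.1% in the experiment and 18.4% elsewhere.

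The opposite end was as wide. Chromosome 16 was 59.7% positive in E3 and between 2.77% and 16.6% in the other 2 µl libraries. Chromosome 10 reached 45.02% in G2 and 38.2% in D2, chromosome 17 reached 42.6% in F2, and chromosome 19 reached 46.2% in A3. The unevenness was 0.68, 0.60, 0.27, 0.80 and 0.53 in A2, C2, D2, F2 and G2, and 0.69, 0.59, 0.91, 0.73, 0.60 and 0.52 in A3, B3, D3, E3, F3 and G3. The difference of 0.10 ± 0.10 (SE) between the arms did not pass (exact permutation p = 0.364, adjusted p = 0.588), and it was 0.022 without D2 and 0.16 without F2.

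Chromosome 10 had the largest difference between the arms. It was 13.2%, 16.8%, 38.2%, 21.02% and 45.02% positive in A2, C2, D2, F2 and G2. It was 2.77%, 13.7%, 8.25%, 30.3%, 18.5% and 0.52% positive in A3, B3, D3, E3, F3 and G3. Relative to the other autosomes of the same library, the 2 µl arm was 13.1 percentage points lower, and the arms overlapped (exact permutation p = 0.0693, adjusted p = 0.952 over 20 chromosomes). Of the 20 chromosomes, 0 passed (0% called), and 0 passed at an unadjusted p under 0.05. Leaving out 1 library at a time gave differences from -15.9 without A2 to -9.51 without G2, with unadjusted exact permutation p-values of 0.0476 and 0.152. The lowest p among these, 0.0238 before and 0.238 after adjustment (exact permutation test), came without E3, with a difference of -15.8 percentage points.

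Chromosome X is present in a single copy in this line of male origin, so a slice has fewer chances to catch it than an autosome. It was 13.8%, 6.05%, 8.11%, 13.8% and 9.72% positive in A2, C2, D2, F2 and G2, and 0.72%, 8.45%, 6.31%, 11.4%, 13.2% and 7.37% positive in A3, B3, D3, E3, F3 and G3. Divided by the autosomal percent, this gave ratios between 0.36 in D2 and 1.09 in A2 with 1 µl, and between 0.053 in A3 and 1.06 in F3 with 2 µl. The ratios averaged 0.70 ± 0.30 (SD, n = 5) and 0.58 ± 0.33 (SD, n = 6; exact permutation p = 0.558, adjusted p = 0.660). Their difference of -0.12 was -0.019 without A2, -0.011 without A3 and -0.21 without F3. A2 and F3 thus detected chromosome X at the rate of the autosomes, while A3 had almost none.

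**Figure D4:**
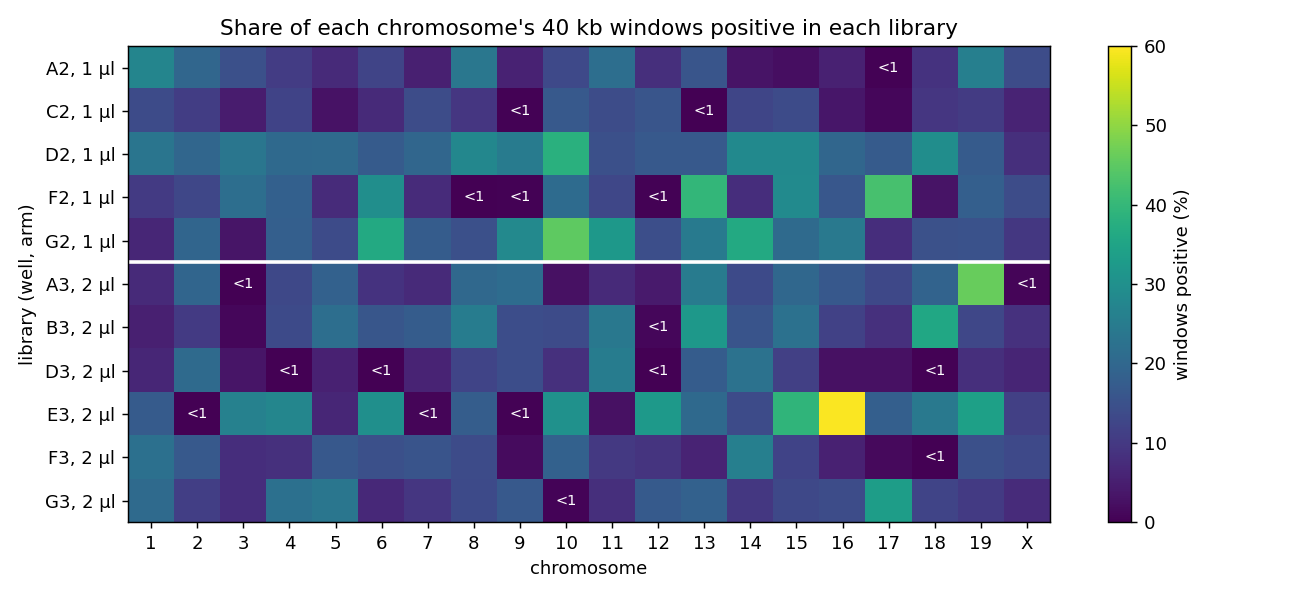
Percent of 40 kb windows positive (colour scale) for each chromosome (x axis) in each library (y axis, 1 µl above the white line and 2 µl under it), with values under 1% marked. Nearly empty chromosomes differ from tube to tube, and the highest value is 59.7% for chromosome 16 in E3.

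At the level of single windows the arms were compared by Fisher's exact test wherever at least 3 of the 11 libraries were positive, which held for 14341 windows. At an unadjusted p under 0.05 there were 81 windows (0.565% called), of which 73 (0.509%) were positive more often with 1 µl and 8 (0.0558%) more often with 2 µl. That count rested on the set of libraries: it was 422, 486, 265, 353 and 297 without A2, C2, D2, F2 and G2, and between 120 and 138 without each 2 µl library. After adjustment 0 windows passed (0% called), and the smallest p the test can give with 5 and 6 libraries is 0.00216. The test is not symmetric: detection in 4 libraries with 1 µl and 0 with 2 µl has p = 0.0152, and 62 windows had this pattern, while on the other side at least 5 of 6 libraries are needed. Of the 73 windows, 42 lay on chromosome 10, which are 3.74% of the 1124 windows tested there. Adjacent windows of a slice are found together, and these windows are therefore not independent.

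The 3 windows detected in all 5 libraries with 1 µl and in none with 2 µl (0.0209% of those tested) were all on chromosome 10. They are chr10:17360001-17400000 and chr10:18880001-18920000, which hold no protein-coding gene, and chr10:76440001-76480000 with Gm10787. In the rest of the series they were positive in 37, 50 and 48 libraries. The next window by the same rule, chrX:166400001-166440000 with Mid1, which encodes a microtubule-associated ubiquitin ligase, and Gm17379, was positive in 4 libraries with 1 µl, 0 with 2 µl and 145 of the rest of the series. In the other direction, 0 windows were positive in all 6 libraries with 2 µl and in none with 1 µl. The window chr13:38800001-38840000 was positive in 6 libraries with 2 µl and 1 with 1 µl. The windows chr13:105080001-105120000 in Adamts6, a secreted metalloprotease, chr15:35680001-35720000 in Vps13b, a lipid transfer protein of the Golgi, and chr17:43280001-43320000, with no protein-coding gene, were positive in 5 libraries with 2 µl and 0 with 1 µl. Each of these last 4 had p = 0.0152 and an adjusted p of 1 (Fisher's exact test, Benjamini-Hochberg).

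Most windows were found by few tubes. Of the autosomal windows, 19.4% were positive in 0 libraries of the experiment, 30.4% in 1, 27.5% in 2, 15.3% in 3 and 5.43% in 4. Only 7 autosomal windows, besides 1 window of chromosome X and the mitochondrial genome, were positive in all 11 libraries. They were also positive in most of the rest of the series, from 200 libraries for chr12:3080001-3120000 to every remaining library for chr2:98480001-98520000. The chromosome 9 members were found also where the chromosome was nearly empty. In C2, F2 and E3 chromosome 9 was 0.32%, 0.32% and 0.35% positive, and chr9:3000001-3040000 and chr9:35080001-35120000 were among the few windows found.

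Some of these windows have repeated sequence in common. In the mm9 genome (NCBI m37) the window chr9:3000001-3040000 is filled for 83.96% of its length by a tandem repeat with a period of 234 bases, the length of the mouse major satellite, which forms the pericentromeric heterochromatin of mouse chromosomes. Words of 16 bases of 1 unit of this array, on either strand and joined end to end, were then looked up in every window of chromosomes 1 to 19 and X. At least 50 such words were held by 10 windows, 1 of them the window that gave the unit, and 4 of these 10 were positive in all 11 libraries. The 10 windows fell apart into 5 that were positive in 10 or 11 libraries and 5 that were positive in 0 to 2. The 784 windows with 1 to 49 words were positive in 1.65 libraries on average and the 65189 windows without any such word in 1.59. The unit and the stretches of the same length with the most shared words in chr2:98480001-98520000 and chr9:35080001-35120000 are shown because, of the windows found by all 11 libraries, these 3 on the nuclear chromosomes were detected most often in the rest of the series. Capitals mark, in the unit, bases inside words of 16 that the unit as printed, its ends not joined, shares with the stretch of chromosome 2. In the other 2 stretches they mark bases inside words of 16 shared with the unit joined end to end. All are written 5′ to 3′ on the plus strand.
chr9:3032248-3032481: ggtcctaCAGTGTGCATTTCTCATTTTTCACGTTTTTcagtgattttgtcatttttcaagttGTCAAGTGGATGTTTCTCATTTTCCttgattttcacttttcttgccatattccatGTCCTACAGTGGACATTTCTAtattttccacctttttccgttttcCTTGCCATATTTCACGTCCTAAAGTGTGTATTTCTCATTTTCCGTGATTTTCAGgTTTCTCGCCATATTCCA
chr2:98507194-98507427: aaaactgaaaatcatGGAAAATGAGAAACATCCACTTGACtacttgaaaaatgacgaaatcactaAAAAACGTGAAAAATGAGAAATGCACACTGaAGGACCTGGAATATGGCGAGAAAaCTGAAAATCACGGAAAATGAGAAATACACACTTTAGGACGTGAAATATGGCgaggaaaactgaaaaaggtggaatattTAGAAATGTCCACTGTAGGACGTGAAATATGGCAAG
chr9:35112886-35113119: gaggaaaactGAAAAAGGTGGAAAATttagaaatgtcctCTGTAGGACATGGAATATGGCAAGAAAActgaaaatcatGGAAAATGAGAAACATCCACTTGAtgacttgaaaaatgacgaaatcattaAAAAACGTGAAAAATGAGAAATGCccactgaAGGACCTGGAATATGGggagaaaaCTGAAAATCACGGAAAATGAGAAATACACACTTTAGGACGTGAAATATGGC
In these stretches 62.8%, 70.5% and 67.9% of the bases are capitals. The fourth of these windows, chr12:3080001-3120000, held 103 such words over 0.52% of its bases. A shared word is a description of the reference sequence, and its part in the detection was not tested.

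The other windows on nuclear chromosomes found by all 11 libraries held none of these words, and the mitochondrial genome was not searched. The window chr11:3040001-3080000 in Sfi1, a gene for a centrin-binding protein of the centrosome, has a tandem repeat of 25 bases that overlaps 0 annotated exons and so lies in an intron. The first 5 units of its best-matching stretch are shown, alternating between lower case and capitals, since it is the clearest repeat without satellite words.
chr11:3051771-3051895: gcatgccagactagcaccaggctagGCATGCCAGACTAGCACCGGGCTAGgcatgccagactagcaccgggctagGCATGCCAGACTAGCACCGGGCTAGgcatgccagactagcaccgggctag
The adjacent window chr11:3080001-3120000 also reaches Drg1 and Eif4enif1, the window chr6:103560001-103600000 lies in Chl1, a neural cell adhesion gene, and the window chrX:139880001-139920000 holds no protein-coding gene.

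The loci that define embryonic stem cells were next located in the tubes. A gene is counted by the window of its transcription start. Over 22350 protein-coding genes the median start was positive in 2 of 11 libraries, and 16.0% of starts were in no library. The 25 pluripotency genes had a median of 2 libraries, with 1 gene, or 4.00%, in none. The 20 housekeeping genes had a median of 2 with 4 genes in none, the 19 matched lineage regulators a median of 2 with 3 in none, and the 20 long neuronal genes a median of 1 with 5 in none. Fisher's exact test between the arms could be run only for starts positive in at least 3 libraries, which were 7 pluripotency genes, 8 lineage regulators, 6 housekeeping genes and 5 long neuronal genes. Of these, 0 had an unadjusted p under 0.05, against 0.565% of all windows tested, and the other starts were not tested.

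Nanog, a homeodomain factor of the pluripotency network, was the pluripotency gene found most often. Its window was positive in A2, D2, F2 and G2 with 1 µl and in A3 with 2 µl (4 of 5 and 1 of 6; Fisher's exact test p = 0.0801, adjusted p = 1). The starts of Dppa3, a maternal factor that protects DNA methylation, and Gdf3, a TGF-beta family ligand, share 1 window on the same chromosome, which was positive in A2, F2, G2 and A3. All 4 of these libraries also had Nanog, and D2 was positive at Nanog but not there. Fgf4, a growth factor of the early embryo, was positive in G2, D3 and E3. Pou5f1, the POU factor Oct4, was positive in F2 and A3, Sox2, its partner factor, in E3 alone, and Klf4, a zinc finger factor, also in E3 alone. Zfp42, the marker Rex1, was positive in A3 alone, and Klf2, a paralogue of Klf4, was in 0 libraries. None of the 11 tubes was positive at the starts of Nanog, Sox2 and Pou5f1 together.

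Among regulators of other lineages, most of which are silent or low in stem cells, Gata6 and Sox17, regulators of endoderm, were each positive in 1 library with 1 µl and 3 with 2 µl. Neurog2, Olig2 and Nkx2-1, all regulators of neural or endodermal fates, were in 0 libraries, and Pax6, the eye and forebrain regulator, was in A2 alone. Of housekeeping genes, Ywhaz, which encodes a 14-3-3 protein, was positive in C2, F2, G2, A3 and E3 and B2m, the light chain of MHC class I, in F2, B3, F3 and G3. Gapdh, a glycolytic enzyme, was in F2, G2 and E3 and Tubb5, a beta tubulin, in D2, F2 and G3. Eef1a1, a translation elongation factor, Polr2a, the largest subunit of RNA polymerase II, Tbp, the TATA-binding protein, and Psmb4, a proteasome subunit, were each in 0 libraries, although 60, 71, 59 and 43 libraries of the rest of the series were positive there. Whether detection goes with expression was not tested.

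Genes longer than a run of windows show how a tube samples 1 locus. Of the 20 long neuronal genes, the starts of Macrod2, Ctnna2, Pcdh15, Cadm2 and Erbb4 were found most often, in 3 libraries each, and those of Nrxn3, Cntnap2 and Magi2 in 0, although windows further inside these last 3 genes were positive in 3 to 7 libraries. Lsamp, a neural adhesion gene of 0.65 Mb on chromosome 16, was covered to 88.2% of its 17 windows in E3, to 5.88% in G3 and to 0% in the other 9 libraries. Rbfox1, a splicing factor on the same chromosome, was covered to 62.5% in E3 and 43.8% in A3, and Cadm2, another adhesion gene there, to 44% in G3 and 40% in E3. E3 is the library in which 59.7% of all windows of chromosome 16 were positive. Csmd1, a complement regulator, was covered to 69.0% in A3 and 59.5% in G3, and Erbb4, a neuregulin receptor, to 64.3%, 50.0% and 42.9% in G3, A2 and F3 and to 0% in 7 libraries. Pcdh15, a protocadherin of hair cells on chromosome 10, was covered to 43.6%, 0%, 33.3%, 20.5% and 59.0% in A2, C2, D2, F2 and G2 and to 7.69%, 15.4%, 33.3%, 0%, 0% and 0% in A3, B3, D3, E3, F3 and G3.

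D2 had positive windows in all of the plotted genes except Lsamp and Erbb4. Its highest value was 34.1% of the 41 windows of Nrxn3, a synaptic adhesion gene. Ptprd, a receptor phosphatase, and Macrod2, a mono-ADP-ribosylhydrolase, were the genes touched by most tubes, with at least 1 positive window in 9 of 11 libraries each. Their medians over the 11 libraries were 5.17% and 5.88%. The 2.26 Mb of Dmd, the dystrophin gene on chromosome X, were covered to 50.0% in F3, 27.6% in B3, 12.1% in G2 and 3.45% in D2 and to 0% elsewhere. Ctnna2, a catenin of neurons, had the largest share of windows that no tube detected, 65.5% of 29.

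**Figure D5:**
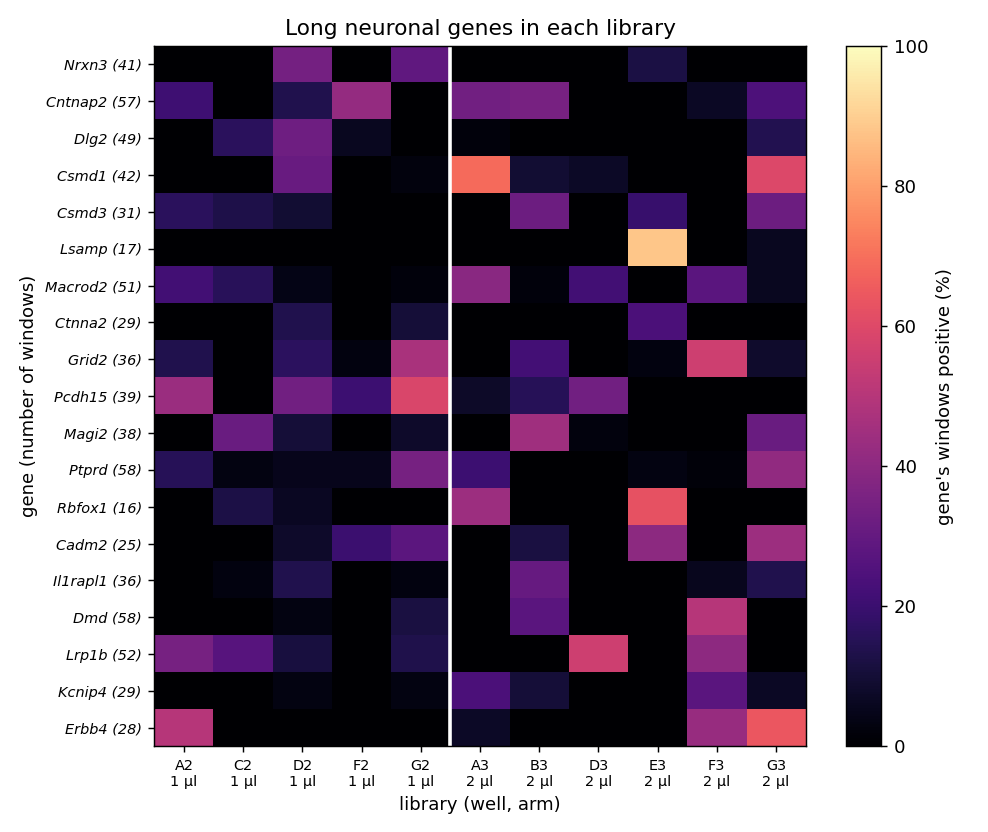
Percent of a gene's windows positive (colour scale) for 19 long neuronal genes (y axis, number of windows in brackets) in each library (x axis, 1 µl left of the white line and 2 µl right). Single tubes cover a gene to as much as 88.2% (Lsamp in E3), while most cells of the plot are at or near 0.

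The longest run of each library is its longest unbroken stretch of positive windows, to which more than 1 slice may contribute. It was 2440 kb in E3 (chr16:3520001-5960000), with 41 protein-coding genes that include Crebbp, the acetyltransferase CBP, and Trap1, a mitochondrial chaperone. Runs of 1720 kb were found in A3 (chr2:130840001-132560000, with Pcna, the sliding clamp of replication, and Prnp, the prion protein) and in G2 (chr9:63600001-65320000, with Smad3 and Smad6, mediators of TGF-beta signalling). F2 had 1440 kb (chr10:42680001-44120000, with Atg5, an autophagy gene), and B3, G3, D3 and A2 had 1360, 1360, 1240 and 1200 kb. F3 had 1000 kb (chrX:111720001-112720000), and C2 and D2 had 840 kb each, on chromosomes 1 and 15. The 11 longest runs lay at 11 different places, and their windows were on average positive in 7.42% to 25.0% of the other 10 libraries. The means were 1208 ± 383 kb with 1 µl (SD, n = 5) and 1520 ± 507 kb with 2 µl (SD, n = 6; exact permutation p = 0.294, adjusted p = 0.588; 95% interval of the difference -280 to 940 kb). The difference of 312 kb was 128 kb without E3.

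Tubes of an arm were compared with tubes of different arms by shared windows. The phi coefficient of 2 libraries over the autosomal windows, which is 0 when their positive windows are unrelated, lay between -0.044 and 0.045 for all 55 pairs. It averaged 0.0087 over the 25 pairs within arms and 0.016 over the 30 pairs between arms (difference -0.0070, exact permutation test p = 0.193). Without E3 the difference was -0.0016 (exact permutation test p = 0.754). The 10 pairs in adjacent wells, as read from the names, averaged 0.0066 and the other 45 pairs 0.014, a difference that was not tested. The lowest value was that of D3 and E3, which by their names are neighbours and lack different chromosomes.

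The protocol text of a further 10 libraries, protocol C of an experiment on reagent volumes, gives the same volumes as the 1 µl arm and adds a storage step for the caps. Coverage there was 17.4% ± 6.10 (SD, n = 10) against 15.2% ± 4.90 with 1 µl, and drop-outs were 25.99% ± 7.36 against 31.95% ± 8.00. Runs averaged 108 ± 21.1 kb and 91.9 ± 19.4 kb. None of the 13 measures passed (lowest exact permutation p = 0.173, lowest adjusted p = 0.848).

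Against all remaining libraries of the series the titration lay on the low side in run length and in coverage. Runs averaged 96.8 ± 15.6 kb (SD, n = 11) and 121 ± 35.2 kb elsewhere, with 10 of 11 libraries below that mean (permutation test, 100000 resamples, p = 0.0224, adjusted p = 0.188 over 13 measures). The longest run was 1378 ± 462.5 kb and 2109 ± 1386 kb (permutation p = 0.0306, adjusted p = 0.188). Coverage was 14.1% ± 3.99 (SD, n = 11) against 18.4% ± 7.77 (permutation p = 0.0580, adjusted p = 0.188). The preference for windows with a protein-coding gene was 2.24 ± 1.65 percentage points against 3.33 ± 1.78 (permutation p = 0.0477, adjusted p = 0.188). With medians in place of means the gene difference was -0.63 in place of -1.09 percentage points (permutation p = 0.394) and the longest run difference -480 in place of -731 kb (permutation p = 0.188). No measure passed after adjustment. Protocol and experiment cannot be told apart in this comparison.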

How the data were processed

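Genomic DNA of nuclear profiles was sequenced after whole genome amplification. Per the labels and methods, the authors aligned reads to mm9 with Bowtie2 2.1, removed PCR duplicates, and called a window of 40 kb positive with GAMtools at a fixed minimum number of reads. Only libraries that passed the study's quality control are in the table used here. The deposited values are therefore of another kind than counts (other: 0 for negative and 1 for positive) and carry no depth, so no interval for counting error was computed.

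All 249 columns were matched to samples by description. The 13 measures per library were coverage, neighbour share, drop-outs, mean and longest run, unevenness over 19 autosomes, ratio of chromosome X to autosomes, differences between positive and negative windows in GC content, between windows with and without protein-coding genes, and between the first or last 5 Mb and the rest of a chromosome, joint detection at 1 Mb, and typicality. Typicality is the mean detection of a library's positive windows in the libraries of the other experiments, minus that of all autosomal windows; a library of another experiment was left out of its own reference. Arms were compared by two-sided exact permutation tests of means, windows with at least 3 positive libraries by Fisher's exact test, and p-values were adjusted by Benjamini-Hochberg. Gene positions came from GENCODE vM1; 84 of 85 list members were matched, Tfcp2l1 under an older symbol, and Sox1 was not. Named windows were, per direction, the 4 with the lowest p (ties by detection in the other libraries), the windows found in all 11 libraries, and the longest runs. By that rule only 4 windows found in all 11 libraries were due; the others were added after their values were seen. In each gene list the 4 genes found most and least often were named, with Sox2, Pou5f1, Nanog and Klf4 and, for long genes, the percent of windows positive per library. Some genes due by this rule are not reported here. The members and gene lists were chosen with earlier results of these data known. Scripts used Python 3, numpy, pandas and scipy and were tested on simulated data. Alternatives were restricted windows, neighbour share less its expectation, stricter flanks, joined runs, edges of 10 Mb, gene starts, a logit scale, medians, another test form, autosomes alone, pairs by the plate row read from library names and leaving out each library.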

Additional observations from a re-analysis of the deposited data

Results flagged for a closer look

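In library E3 of the 2 µl arm, 26.5% of the windows of chromosome 3 were positive, while the other 5 libraries of the arm lay between 0.23% and 7.82%. In the same library 59.7% of chromosome 16 was positive, against 2.77% to 16.6% in the other 5. Both stood out because the gap to the nearest library took up 0.71 and 0.76 of the arm's whole range, above Dixon's 95% critical value. Of 66 such checks on arms, 2 stood out, and chance alone passes that value in about 1 in 20.

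Sequences left out of the comparison of chromosomes also carried signal, and their windows counted in coverage. Chromosome Y had at least 1 positive window in 10 of 11 libraries, with 27 of 398 windows in E3, 25 in F2, 21 in D2, 14 in D3 and 0 in A2. The remaining 6 libraries had 1 to 4 windows. The mitochondrial genome, which is a single entry of the table, was positive in 11 of 11 libraries.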

How the results depend on the processing

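No measure passed its threshold between the arms, against protocol C or against the other libraries under any alternative run, so these alternatives say nothing on stability. The 2 µl minus 1 µl difference changed sign only for the centromere and telomere shifts. Between plate row pairs, read from the name endings and stated by no label, with 4 pairs and a smallest p of 0.125, it was 1.87 for the centromere shift and -0.0675 for the telomere shift, against -0.61 and 0.075 percentage points. In these pairs coverage moved from -2.01 to -5.19, drop-outs from -3.83 to -1.41 and joint detection at 1 Mb from 3.47 to 1.79 percentage points, mean run length from 8.92 to 1.80 kb and longest run from 312 to 30 kb. Typicality went from -0.15 to -0.26 and had the smallest p these pairs allow (exact permutation p = 0.125, adjusted p = 0.948). Neighbour share minus the share expected from coverage differed by 8.71 against 5.36 percentage points (exact permutation p = 0.0952, adjusted p = 0.588), and runs joined across 1 negative window by 23.5 against 8.92 kb. Edges of 10 Mb gave -1.57 and 1.45 for the centromere and telomere shifts. Medians gave -5.77 for drop-outs, 160 kb for the longest run, 0.049 for unevenness and -0.077 for the chromosome X ratio, which was -0.18 over windows positive in at least 25 libraries. For joint detection at 1 Mb medians gave 2.30 against 3.47 percentage points (exact permutation p = 0.784). Leaving out 1 library gave -1.72 to 0.69 and -0.55 to 0.62 for the centromere and telomere shifts, -3.59 to -0.59 for coverage, 3.52 to 14.2 kb for mean run length and -0.27 to -0.020 for typicality, whose lowest unadjusted p was 0.0317 (exact permutation test, without B3). For 1 µl minus protocol C, medians gave 0.24 for the GC shift, 0.43 for the gene shift and 0.039 for the telomere shift, all below 0 with means. Medians also gave 11.4 against 5.96 for drop-outs, -9.05 against -5.31 for neighbour share and -29.4 against -16.5 kb for mean run length there. Leaving out 1 library gave -0.11 to 0.051 for the GC shift, -0.41 to 0.19 for the gene shift, -2.92 to 0.064 for joint detection at 1 Mb, and -0.029 to 0.10 for unevenness. Coverage in this contrast differed by -3.62 to -0.62 on leaving out 1 library and by -1.30 with medians, against -2.21 percentage points. For the experiment minus the other libraries, joint detection at 1 Mb was 0.62 with medians and 0.024 without the full collection, against -0.21; leaving out 1 library gave -0.85 to 0.74, and -0.15 to 1.07 for the centromere shift. The count of 81 windows at an unadjusted p under 0.05 became 120 to 486 when 1 library was left out (265 to 486 without each 1 µl library, 120 to 138 without each 2 µl library). The lower detection elsewhere of missed windows kept its direction without each library in turn, from -0.61 to -0.53, and was -0.40 over windows of intermediate detection (exact sign-flip permutation p = 0.000977); these alternatives were chosen after seeing the data. Nearly empty autosomes numbered 21 at a limit of 2%. The cause of these changes was not tested. Replicate numbers are not in the labels, so these presumed rows are the only pairing that was tried. Depth is unknown.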
